A study of Mus musculus with 18 samples.

Results

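The enzymes that hydroxylate collagen chains, chaperone the folded molecule and cross-link the finished fibre were followed through the first 3 days of a mouse myocardial infarction. The 10 genes, taken by symbol from the 30583 genes in the table, were the lysyl oxidases Lox, Loxl1, Loxl2, Loxl3 and Loxl4, the lysyl hydroxylases Plod1 and Plod2, the prolyl 4-hydroxylase catalytic subunits P4ha1 and P4ha3, and the collagen chaperone Serpinh1 (HSP47). All 10 passed the filter on low counts. By the labels, the 18 mice were 12-week-old male C57BL/6JR animals in 6 groups of 3, anaesthetised and operated on alike. In the 5 infarction groups the left anterior descending coronary artery was tied and tissue was taken at one of 5 times, the first at 10 min and the others at 1, 6, 24 and 72 h, while in sham mice (0 h) the thread was passed around the vessel and left loose. Poly(A) RNA of the left ventricle, infarcted in the ligated mice, was sequenced. The label Cardiomyocytes stands beside the tissue although no cell separation is described.

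Collagen chains are modified while they enter the endoplasmic reticulum. Prolyl 4-hydroxylases make the hydroxyproline that keeps the triple helix stable, lysyl hydroxylases make the hydroxylysine from which the strongest cross-links form, and HSP47 binds the folded trimer on its way out. Outside the cell, lysyl oxidases, which are copper enzymes, oxidise lysines of collagen and elastin so that neighbouring molecules bond. In the infarcted heart these steps belong to the laying down of the scar, mainly by fibroblasts.

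Libraries held 18.2 to 25.1 M counts (M, mega). Levels are given as TMM-scaled CPM, counts per M counts after scaling between libraries. Levels of different genes are compared only as FPKM, which divides by gene length and by the library total, without TMM scaling. TMM factors were 0.907 to 0.959 in sham and 1.36 to 1.43 at 72 h. FPKM levels and sums therefore rise more between these groups than TMM-scaled CPM does. Markers of cardiomyocytes, fibroblasts, endothelial, mural and macrophage cells were present in every library, so the samples are read as whole tissue, in which fewer cells of a type and less RNA per cell cannot be told apart. The summed level of 7 cardiomyocyte markers was 55587 to 60743 CPM in sham and 14597 to 19225 CPM at 72 h, and mitochondrially encoded genes took 25.1% ± 1.17 and 9.71% ± 1.14 of the counts (SD, n = 3). Tests are edgeR quasi-likelihood tests with p adjusted by Benjamini-Hochberg over 16311 genes, and a gene was called at an adjusted p under 0.05. All comparisons with sham share the same 3 sham libraries. No sham mice were taken at the later times, so ligation and time since the operation cannot be told apart in these comparisons.

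Promoter sequence was at hand in the RefSeq table (GRCm38.p6) for 5 of the 10 genes, namely P4ha1, P4ha3, Serpinh1, Plod1 and Loxl4. Of these, 3 are shown, because P4ha1 and P4ha3 encode alternative catalytic subunits whose transcripts moved by very different amounts, and Serpinh1 had the highest level. Each runs 250 bases up to the base before the transcription start, 5′ to 3′ on the gene's strand. Capitals mark ACGTG, a form of the core of the hypoxia response element and the only form searched. The search covered both strands, and a match on the other strand reads CACGT here. The 3 intervals are chr10:59323046-59323295 (P4ha1, plus strand), chr7:100285270-100285519 (P4ha3, plus strand) and chr7:99353240-99353489 (Serpinh1, minus strand).
P4ha1: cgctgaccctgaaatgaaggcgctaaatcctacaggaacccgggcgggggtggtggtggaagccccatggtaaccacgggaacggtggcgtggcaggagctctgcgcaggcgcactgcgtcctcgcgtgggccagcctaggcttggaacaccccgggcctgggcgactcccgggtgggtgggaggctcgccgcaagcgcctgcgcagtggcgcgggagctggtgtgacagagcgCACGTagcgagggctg
P4ha3: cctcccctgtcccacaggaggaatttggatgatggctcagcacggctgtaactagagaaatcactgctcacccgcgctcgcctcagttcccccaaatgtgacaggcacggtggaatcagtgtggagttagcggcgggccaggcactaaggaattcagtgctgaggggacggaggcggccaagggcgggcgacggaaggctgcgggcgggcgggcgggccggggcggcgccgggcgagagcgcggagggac
Serpinh1: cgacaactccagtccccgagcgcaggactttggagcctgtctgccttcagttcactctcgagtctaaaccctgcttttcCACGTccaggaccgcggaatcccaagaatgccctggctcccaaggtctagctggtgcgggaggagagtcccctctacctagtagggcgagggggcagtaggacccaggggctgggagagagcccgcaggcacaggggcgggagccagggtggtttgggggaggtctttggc
The letters ACGTG occurred once in the P4ha1 window, 16 bases before the start, and once in the Serpinh1 window, 171 bases before it. They did not occur in these windows of P4ha3, Plod1 or Loxl4, and 16.6% of 32851 mouse promoter windows of this length hold them. The TATA letters TATAAA, searched on both strands, were found in 1 of the 5 windows, that of Plod1, 232 bases before the start, against 12.4% of all windows. The windows were rich in G and C, from 61.6% in Plod1 to 76.0% in Loxl4. A match describes the letters and is not a measured site.

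Most of the 10 genes rose late, and not all at the same time. None was called at 10 min or 1 h, 3 were higher than sham at 6 h, 8 at 24 h and 9 at 72 h. No member was called lower than sham at these times. Those higher at 6 h were Lox, Loxl4 and, at the edge of the threshold, Plod2, whose call was lost in 13 of 16 alternative settings. Loxl1, Loxl2, Loxl3, P4ha1, P4ha3 and Serpinh1 were first called at 24 h, and Plod1 was not called against sham at any single time. Their median log2 fold change against sham was 0.11 at 10 min, -0.04 at 1 h, 0.29 at 6 h, 0.94 at 24 h and 2.77 at 72 h, while that of all genes tested lay between -0.01 and 0.03. The counts stand against a background that was itself large: 0.0736% of all genes were called at 10 min, 0.294% at 1 h, 28.4% at 6 h (16.3% higher, 12.2% lower), 43.8% at 24 h (23.7% higher, 20.2% lower) and 66.4% at 72 h (34.2% higher, 32.2% lower). All 3 libraries lay above all 3 sham libraries in 5 of the 10 genes at 6 h, 9 at 24 h and 9 at 72 h. Of all genes tested, 23.1%, 28% and 39.3% showed this at these times. At 10 min and 1 h the smallest edgeR adjusted p among the 10 genes was 0.673 and 0.954, and 1 and 0 of them had an unadjusted p under 0.05. A test of all 5 times together called 10 of 10, as it did 78.4% of all genes.

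**Figure D1:**
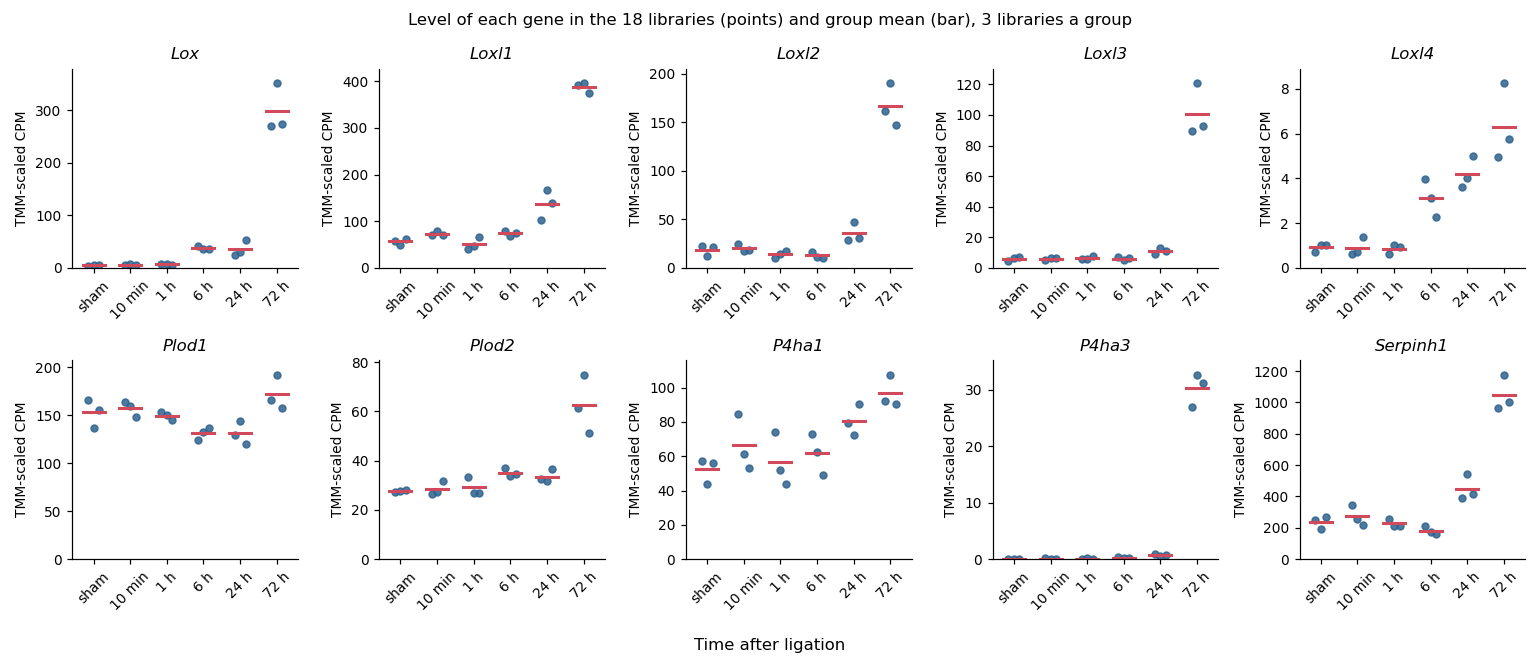
TMM-scaled CPM of each gene (vertical axis from 0, own scale per gene) in sham and at 5 times after ligation (horizontal axis). Points are libraries and bars are means of 3. In 9 of the 10 panels the 72 h points lie above every sham point, and in the Plod1 panel they overlap.

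Lox (ENSMUSG00000024529, chr18:52516067-52529867, minus strand, GRCm38) encodes the founding lysyl oxidase, which cross-links fibrillar collagen and elastin. Its level was 3.69, 5.86 and 5.86 CPM in the sham libraries, 6.04, 6.63 and 5.75 at 10 min and 7.29, 7.22 and 5.31 at 1 h. At 6 h it was 42.0, 35.2 and 35.6 CPM, at 24 h 24.1, 29.9 and 53.2, and at 72 h 270, 351 and 273. The libraries of the 3 late times were all above those of the 3 early ones, and the 6 h and 24 h ranges overlapped. Lox was 7.29-fold higher than sham at 6 h (log2 2.87, SE 0.26, edgeR adjusted p = 3.84e-06), 6.91-fold at 24 h (2.79, SE 0.26, adjusted p = 2.10e-06) and 57.9-fold at 72 h (5.85, SE 0.28, adjusted p = 1.34e-10). The rise thus came in 2 steps, between 1 h and 6 h (log2 2.50, SE 0.26, edgeR adjusted p = 1.43e-05) and between 24 h and 72 h (3.07, SE 0.24, adjusted p = 6.03e-08), with no call between 6 h and 24 h (-0.08, SE 0.23, adjusted p = 0.832). Replicate 3 at 24 h decided that middle value, since without it Lox was called lower at 24 h than at 6 h (log2 -0.47, edgeR adjusted p = 0.0409). That library also had the highest summed neutrophil marker level of its group, 652 CPM against 152 and 35.1, and the lowest cardiomyocyte marker level, 23923 CPM against 36731 and 37385. Their part in the Lox value was not tested.

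Loxl4 (ENSMUSG00000025185, chr19:42593982-42612813, minus strand), a family member that carries scavenger receptor domains, was the other early one, at a far lower level. Its counts were 14, 20 and 23 in sham, 67, 65 and 43 at 6 h, 84, 114 and 97 at 24 h, and 157, 271 and 181 at 72 h, or 0.922 ± 0.186, 3.13 ± 0.852, 4.22 ± 0.707 and 6.32 ± 1.72 CPM (SD, n = 3). All libraries from 6 h on exceeded all earlier ones, where 10 min and 1 h gave 0.623 to 1.40 CPM. The log2 fold change against sham was 1.75 at 6 h (SE 0.31, edgeR adjusted p = 5.23e-04), 2.18 at 24 h (SE 0.31, adjusted p = 3.30e-05) and 2.77 at 72 h (SE 0.30, adjusted p = 2.29e-07). Neither step after 6 h was called, at 0.43 (SE 0.27, edgeR adjusted p = 0.255) up to 24 h and 0.59 (SE 0.26, adjusted p = 0.0677) from there to 72 h. The last step was past the threshold in 6 of 15 alternative settings.

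Loxl1 (ENSMUSG00000032334, chr9:58287738-58313186, minus strand), best known for elastic fibre upkeep, was the most abundant lysyl oxidase of the sham heart. It stood at 58.5, 49.4 and 62.6 CPM in sham, 70.7, 80.0 and 70.0 at 10 min, 41.4, 46.7 and 65.4 at 1 h, and 80.0, 68.7 and 74.7 at 6 h. The later libraries gave 103, 167 and 140 CPM at 24 h and 392, 396 and 376 at 72 h. The 3 libraries at 10 min all lay above the 3 sham libraries, which 11% of all genes also showed, and the difference was not called (log2 0.37, SE 0.16, edgeR adjusted p = 0.673). Loxl1 was called at 24 h (log2 1.27, SE 0.16, edgeR adjusted p = 1.71e-05) and at 72 h (2.77, SE 0.17, adjusted p = 2.98e-10).

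Loxl2 (ENSMUSG00000034205, chr14:69609068-69695834, plus strand) and Loxl3 (ENSMUSG00000000693, chr6:83034173-83052562, plus strand) also carry scavenger receptor domains, and Loxl2 acts on the collagen IV of basement membranes. Loxl2 ran at 22.2, 11.9 and 21.5 CPM in sham, and its 10 min, 1 h and 6 h libraries, from 10.6 to 24.7 CPM, overlapped with sham at each time. It reached 28.9, 47.7 and 30.6 CPM at 24 h and 162, 190 and 147 at 72 h. Against sham the log2 fold change was -0.53 at 6 h (SE 0.27, edgeR adjusted p = 0.154), 0.95 at 24 h (SE 0.26, adjusted p = 0.00771) and 3.17 at 72 h (SE 0.27, adjusted p = 5.90e-08). The value at 6 h was called lower when sham replicate 2 was left out (-0.76, edgeR adjusted p = 0.0369), the sham library in which Loxl2 was lowest.
Loxl3 had 4.30, 6.53 and 7.20 CPM in sham and its 10 min, 1 h and 6 h libraries stayed between 5.12 and 7.87 CPM. It then gave 9.28, 13.3 and 11.3 CPM at 24 h and 89.5, 121 and 92.4 at 72 h, each above all sham libraries. These are log2 fold changes of 0.91 (SE 0.19, edgeR adjusted p = 0.00114) and 4.06 (SE 0.20, adjusted p = 1.71e-11). Loxl3 shares exon sequence with Htra2 on the opposite strand, whose level was 26.4 CPM in sham and 34.7 at 72 h, and whether counting used strand is not given in the sources used here. Loxl2, Plod2 and Lox also share exon sequence with genes on the opposite strand: Gm27177 for Loxl2, at or under 0.158 CPM, Gm38391 for Plod2, at or under 2.11 CPM, and AC161119.1 for Lox, which was not analysed here.

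P4ha3 (ENSMUSG00000051048, chr7:100285520-100319699, plus strand) changed most among the 10 genes. It was next to silent in the sham-operated ventricle, with 2, 2 and 1 counts in the sham libraries, 3, 2 and 0 at 10 min and 0, 3 and 0 at 1 h. At 6 h it had 7, 3 and 3 counts, at 24 h 23, 18 and 14, and at 72 h 852, 1074 and 983, the last equal to 26.9, 32.7 and 31.3 CPM. Set against the 5 counts of sham in all, the summed rate was 9.56 times as high at 24 h (95% exact interval 3.86 to 30.6, counting error only) and 373 times as high at 72 h (160 to 1151). At 6 h the ratio of 2.84 had an interval from 0.949 to 10.2. The fitted log2 fold change was 3.17 at 24 h (SE 0.58, edgeR adjusted p = 3.57e-04) and 8.44 at 72 h (SE 0.43, adjusted p = 1.70e-11), and 0.135% of all genes tested had a larger one at 72 h.

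P4ha1 (ENSMUSG00000019916, chr10:59323296-59373304, plus strand), the main catalytic subunit of many tissues, rose far less. Its libraries gave 57.2, 43.9 and 55.9 CPM in sham, 84.4, 61.1 and 53.4 at 10 min, 74.1, 51.7 and 43.8 at 1 h, and 73.2, 62.6 and 49.2 at 6 h. The 3 early groups all overlapped with sham. At 24 h it had 79.2, 72.4 and 90.2 CPM and at 72 h 92.0, 108 and 90.3, all above sham. The log2 fold change was 0.62 at 24 h (SE 0.20, edgeR adjusted p = 0.0177) and 0.88 at 72 h (SE 0.20, adjusted p = 8.53e-04). The 24 h call was lost without sham replicate 2 (edgeR adjusted p = 0.0810), without replicate 3 at 24 h (0.0786) and with no filter on low counts (0.0606).

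Plod1 (ENSMUSG00000019055, chr4:147909753-147936767, minus strand), the lysyl hydroxylase that acts on helical lysines, kept to a narrow band. Its level was 166, 137 and 156 CPM in sham, 164, 160 and 148 at 10 min, 153, 150 and 145 at 1 h, 124, 133 and 137 at 6 h, 130, 144 and 120 at 24 h, and 166, 193 and 157 at 72 h. Against sham the log2 fold change was -0.22 at 6 h (SE 0.10, edgeR adjusted p = 0.1004), -0.22 at 24 h (SE 0.10, adjusted p = 0.0729) and 0.17 at 72 h (SE 0.10, adjusted p = 0.136). Plod1 passed the test of all 5 times together (edgeR adjusted p = 0.00774), and rose by 0.39 on the log2 scale from 24 h to 72 h (SE 0.10, edgeR adjusted p = 0.00267). Scaling by library total, which raised the median of all genes by 0.61 at 72 h, gave Plod1 a call there too (log2 0.75, edgeR adjusted p = 4.58e-06). In all, Plod1 was called higher at 72 h in 5 of 16 alternative settings and lower at 6 h in 4 of 16, with library total scaling and the 3 limma settings on FPKM in both sets and a minimum of 10 counts in every library also at 72 h. Plod1 was also called at 24 h, lower than sham, without sham replicate 2 (-0.30, edgeR adjusted p = 0.0378) or without replicate 2 at 24 h (-0.29, adjusted p = 0.0372).

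Plod2 (ENSMUSG00000032374, chr9:92542223-92608428, plus strand) hydroxylates the lysines of collagen's end peptides and is the lysyl hydroxylase most often tied to scar collagen. Sham libraries were close together at 27.4, 27.8 and 28.3 CPM, and those at 10 min and 1 h, from 26.5 to 33.6 CPM, overlapped with them. The level was 37.0, 34.0 and 34.5 CPM at 6 h, 32.5, 31.6 and 36.6 at 24 h, and 61.4, 74.99 and 51.3 at 72 h. Each was above all 3 sham libraries, which 23.1%, 28% and 39.3% of all genes tested also showed at these times. The 72 h rise was 2.25-fold (log2 1.17, SE 0.12, edgeR adjusted p = 1.45e-07). At 6 h the log2 fold change of 0.34 (SE 0.12) just passed (edgeR adjusted p = 0.0496) and was lost in 13 of 16 alternative settings, each of the 6 that leave out 1 library included, where adjusted p ran from 0.0657 to 0.152. At 24 h the log2 fold change was 0.27 (SE 0.12, edgeR adjusted p = 0.0871). It was called higher there in 4 of 16 alternative settings, namely library total scaling and the limma settings on FPKM.

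Serpinh1 (ENSMUSG00000070436, chr7:99345376-99353239, minus strand) lies 932.3 kb from P4ha3 on the same chromosome. It was the most abundant of the 10 genes per length, with 90.4 ± 17.2 FPKM in sham and 597 ± 67.4 at 72 h (SD, n = 3). Its libraries gave 252, 193 and 268 CPM in sham, 344, 257 and 221 at 10 min, 259, 212 and 215 at 1 h, and 209, 176 and 159 at 6 h, with overlap at each time. It then gave 391, 543 and 418 CPM at 24 h and 963, 1178 and 1005 at 72 h, with no overlap. The log2 fold change against sham was -0.39 at 6 h (SE 0.17, edgeR adjusted p = 0.0935), 0.92 at 24 h (SE 0.17, adjusted p = 3.77e-04) and 2.14 at 72 h (SE 0.18, adjusted p = 7.72e-09). The 6 h value was called lower in 4 of 16 alternative settings, among them the one without sham replicate 2 (-0.52, edgeR adjusted p = 0.0471).

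**Figure D2:**
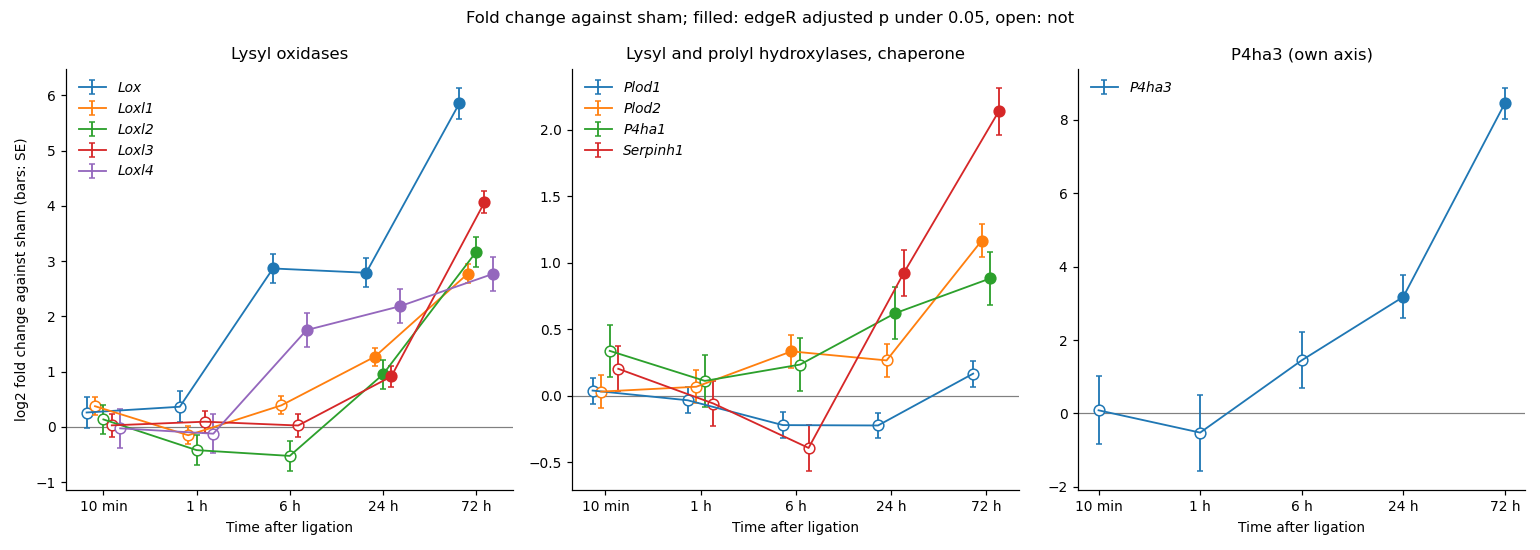
Log2 fold change against sham (vertical axis, own scale per panel) at 5 times after ligation (horizontal axis), with SE as bars; filled points have an edgeR adjusted p under 0.05. Lox and Loxl4 have filled points at 6 h with log2 2.87 and 1.75, Plod2 one at 0.34, and Plod1 has none.

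Between consecutive times the calls moved from gene to gene. From 10 min to 1 h none of the 10 was called (0.307% of all genes were, 1 member had an unadjusted p under 0.05). From 1 h to 6 h Lox, Loxl1 and Loxl4 were called higher, against 14.5% of all genes, though Loxl1 (log2 0.54, SE 0.16, edgeR adjusted p = 0.0220) lost its call in 7 of 16 alternatives, among them those without 1 h replicate 1 (adjusted p = 0.112), 1 h replicate 2 (0.0898) or 6 h replicate 1 (0.0839). From 6 h to 24 h Loxl1, Loxl2, Loxl3, P4ha3 and Serpinh1 were called higher, against 14.2% of all genes. Serpinh1 had the smallest p of these (log2 1.32, SE 0.17, edgeR adjusted p = 5.11e-05) and P4ha3 the least secure (1.73, SE 0.48, adjusted p = 0.0125), lost without 6 h replicate 2 (0.0588) or 6 h replicate 3 (0.0534) and 1.51-fold larger without 6 h replicate 1 (log2 2.32). From 24 h to 72 h 8 of the 10 were called higher, against 24.4% of all genes. The exceptions were Loxl4 and P4ha1 (log2 0.26, SE 0.20, edgeR adjusted p = 0.283), and the largest of these steps were those of P4ha3 (5.27, SE 0.31), Loxl3 (3.15, SE 0.19) and Lox (3.07, SE 0.24).

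Per length, the make-up of the lysyl oxidase family changed along with its amount. Without TMM scaling, the 5 lysyl oxidases summed to 21.6 ± 3.35 FPKM in sham, 29.9 ± 1.68 at 6 h, 63.1 ± 17.4 at 24 h and 325 ± 26.4 at 72 h (SD, n = 3). Loxl1 made up 74.2% ± 0.998 of that sum in sham, 64.8% ± 1.92 at 6 h, 70.2% ± 2.61 at 24 h and 50.5% ± 3.20 at 72 h. Lox held 4.66% ± 1.42 in sham, 22.4% ± 0.511 at 6 h, 12.6% ± 4.46 at 24 h and 26.4% ± 1.85 at 72 h. Its 6 h libraries, at 21.8% to 22.7%, lay above all sham libraries, at 3.23% to 6.07%. Loxl2 took 14.5% ± 3.25 in sham, 6.81% ± 1.06 at 6 h and 13.1% ± 0.671 at 72 h, and Loxl3 5.67% ± 1.60, 3.82% ± 0.311 and 9.33% ± 0.817. Loxl4 held 0.956% ± 0.260 in sham, 2.12% ± 0.454 at 6 h and 0.636% ± 0.122 at 72 h. In each of the 6 groups Loxl1 had the largest mean share and Loxl4 the smallest.

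Among the hydroxylase pairs, Plod2 made up 18.7% ± 1.56 of the summed FPKM of Plod1 and Plod2 in sham, 25.1% ± 1.78 at 6 h, 24.4% ± 3.06 at 24 h and 31.2% ± 1.94 at 72 h, as the sum went from 25.8 ± 2.35 to 51.4 ± 6.37 FPKM between sham and 72 h. P4ha3 made up 0.215% ± 0.104 of the summed FPKM of P4ha1 and P4ha3 in sham, 1.27% ± 0.309 at 24 h and 29.2% ± 1.85 at 72 h, as that sum went from 11.8 ± 1.85 to 46.1 ± 4.40 FPKM. With the paralogs that are not among the 10 genes included, the shares were smaller. Of Plod1, Plod2 and Plod3 together, Plod2 made up 13.8% ± 0.893 in sham and 17.9% ± 1.03 at 72 h, while Plod3, the lysyl hydroxylase that is also a glycosyltransferase, went from 26.2% ± 1.75 to 42.5% ± 0.273. Of P4ha1, P4ha2 and P4ha3 together, P4ha3 made up 0.131% ± 0.0606 in sham and 24.2% ± 1.62 at 72 h. These shares are descriptions, and the smallest p an exact test of 3 against 3 libraries could give is 0.10.

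**Figure D3:**
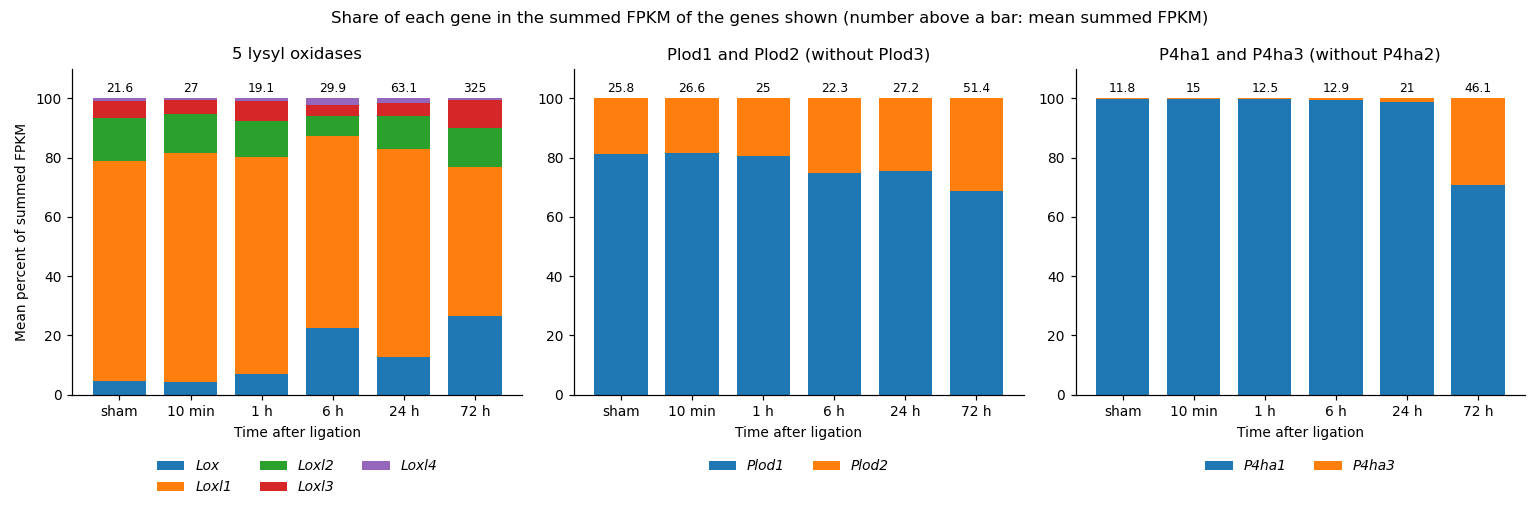
Mean percent of the summed FPKM of the 5 lysyl oxidases, of Plod1 with Plod2 and of P4ha1 with P4ha3 (vertical axis, 0 to 100%, with Plod3 and P4ha2 not in the sums) by group (horizontal axis, means of 3 libraries), with the mean summed FPKM, not TMM-scaled, above each bar. Lox grows from 4.66% of the lysyl oxidases in sham to 26.4% at 72 h, Plod2 from 18.7% to 31.2% of its pair and P4ha3 from 0.215% to 29.2%.

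Among all genes with an FPKM above 0 in a library, Lox moved from the 42.7 to 48.8 percentile range in sham to 97.0 to 97.7 at 72 h, and P4ha3 from 2.54 to 7.27 up to 82.1 to 84.5. Loxl1 went from 87.2 to 89.9 up to 98.5 to 98.6, and Serpinh1, already at 97.2 to 98.1 in sham, reached 99.7 to 99.8. Loxl4 rose only to between 50.4 and 56.7.

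The substrates of these enzymes were read beside them. The list of substrates held 6 chains of the fibrillar and basement membrane collagens besides Col1a1, the main chain of type I collagen, and elastin (Eln). Of these 8 genes, 1 was called higher at 10 min (Eln, log2 0.69, SE 0.12, edgeR adjusted p = 0.0415), when the median of the list was 0.54, and none at 1 h. Then 3 were called higher (Col4a1, Col4a2 and Eln) and 3 lower (Col1a2, Col3a1 and Col5a1) at 6 h, 7 higher at 24 h and 8 of 8 higher at 72 h, with a median log2 fold change of -0.19, 0.97 and 4.10. Of all genes tested, 16.3%, 23.7% and 34.2% were called higher at these times, and 12.2% lower at 6 h. At 72 h Col1a1 had risen by log2 5.58 (SE 0.26, edgeR adjusted p = 1.72e-11), Col3a1 by 5.23 (SE 0.25), Col5a2 by 4.42 (SE 0.19) and Col5a1 by 3.78 (SE 0.18). The summed FPKM of the 3 main fibrillar chains, Col1a1, Col1a2 and Col3a1, again without TMM scaling, was 31.9 ± 6.56 in sham, 46.4 ± 2.05 at 10 min, 29.3 ± 4.10 at 1 h, 18.5 ± 3.05 at 6 h, 78.9 ± 31.2 at 24 h and 1804 ± 311 at 72 h (SD, n = 3).

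Set against that collagen sum library by library, Lox and P4ha3 were the members whose ratio was above sham at 72 h with no overlap, which 1.09% of all genes tested also showed. The log2 ratio of Lox to collagen was -5.02 ± 0.456 in sham, -1.45 ± 0.208 at 6 h, -3.34 ± 0.811 at 24 h and -4.38 ± 0.0580 at 72 h, a difference from sham of 3.57, 1.68 and 0.64. The gap at 72 h was narrow, with Lox libraries from -4.43 to -4.32 against -5.46 to -4.55 in sham. For P4ha3 the difference was 2.12 at 6 h, 2.25 at 24 h and 3.36 at 72 h, on 1 to 2 counts per sham library. Loxl4 was above sham at 6 h and 24 h, by 2.42 and 1.14, and below it at 72 h, by -2.48. At 72 h the ratio of the other 8 was below sham with no overlap between libraries, as it was for 96% of all genes tested, since the collagen sum had itself risen: -1.15 for Loxl3, -2.03 for Loxl2, -2.47 for Loxl1, -3.09 for Serpinh1, -4.09 for Plod2, -4.35 for P4ha1 and -5.08 for Plod1. At 6 h 8 of the 10, all but Loxl2 (0.18) and Loxl3 (0.72), had all 3 libraries above all sham libraries in this ratio, and so did 53.3% of all genes tested. The collagen sum itself was below sham in all 3 libraries at that time (15.0 to 20.5 against 25.8 to 38.9 FPKM), so a gene with no call of its own, such as Plod1, also counts as above in this ratio.

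**Figure D4:**
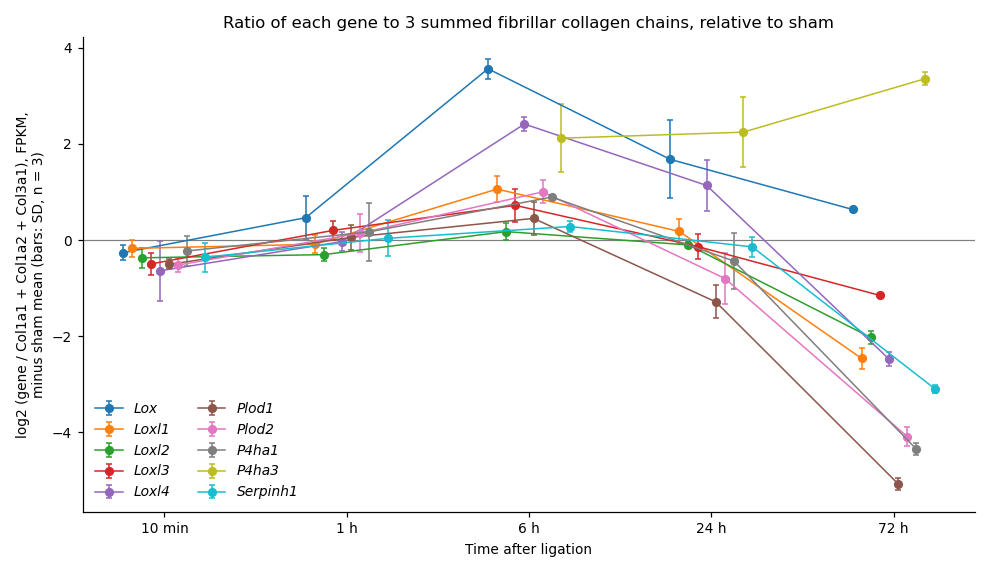
Log2 ratio of each gene's FPKM to the summed FPKM of Col1a1, Col1a2 and Col3a1, minus the sham mean (vertical axis), at 5 times after ligation (horizontal axis); points are means and bars SD of 3 libraries, and P4ha3 is not drawn at 10 min and 1 h, where libraries had a count of 0. Lox peaks at 3.57 at 6 h, and at 72 h Lox (0.64) and P4ha3 (3.36) are above 0 and the others below.

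Other genes of the same route followed in part. Of 13 further genes for collagen hydroxylation and folding, 1 was called higher at 6 h (Plod3), 9 at 24 h and 10 at 72 h, with 1 lower each time (Colgalt2, a collagen galactosyltransferase, log2 -1.26 at 72 h, SE 0.17), and a median of 1.48 at 72 h. Of all genes tested, 16.3%, 23.7% and 34.2% were called higher at these times, and 12.2%, 20.2% and 32.2% lower. The 3 members of the prolyl 3-hydroxylation complex, P3h1, Crtap and Ppib, rose by log2 1.73 (SE 0.12), 1.58 (SE 0.09) and 1.74 (SE 0.10), and P3h3 by 1.99 (SE 0.13, edgeR adjusted p = 3.43e-10). The third prolyl 4-hydroxylase subunit gene, P4ha2, named here after its value was seen, was not called at 72 h (log2 -0.21, SE 0.12, edgeR adjusted p = 0.140). Of 12 genes for procollagen export and trimming, 3 were lower at 6 h, as were 12.2% of all genes tested. At 24 h 3 were higher and 4 lower (23.7% and 20.2% of all genes). At 72 h 6 were higher and 4 lower (34.2% and 32.2% of all genes). Those that rose at 72 h included Adamts2 (log2 3.09, SE 0.10) and Adamts14 (2.14, SE 0.21), which remove the N-terminal propeptide, Bmp1 (2.096, SE 0.15), which removes the C-terminal one and activates pro-LOX, and its enhancer Pcolce (2.05, SE 0.13, edgeR adjusted p = 4.90e-10).

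Matrix proteins that bind lysyl oxidases were called higher in 6 of 6 cases at 72 h (34.2% of all genes tested). Before that, 1 of 6 was higher at 6 h (Thbs1, against 16.3% of all genes), and 4 were higher and 2 lower at 24 h (23.7% and 20.2%). Periostin (Postn) rose by log2 6.21 at 72 h (SE 0.27), fibronectin (Fn1) by 4.86 (SE 0.39), fibulin-4 (Efemp2) by 2.82 (SE 0.15) and fibromodulin (Fmod) by 1.95 (SE 0.37, edgeR adjusted p = 1.24e-04). Hypoxia-induced genes, a class to which Lox, Plod2 and P4ha1 are also known to belong, had another time course. Of 14, 7 were higher at 6 h (16.3% of all genes tested), and 5 higher and 1 lower at 24 h (23.7% and 20.2%). At 72 h 0 were higher and 6 lower (34.2% and 32.2%). At 6 h the glucose transporter gene Slc2a1 was up by log2 2.72 (SE 0.43), adrenomedullin (Adm) by 1.80 (SE 0.28), Ndrg1 by 0.89 (SE 0.21) and Bnip3 by 0.80 (SE 0.16, edgeR adjusted p = 0.00179). Of 9 TGF-beta ligands and targets, 6 were higher and 1 lower at 6 h (16.3% and 12.2% of all genes). Then 7 were higher at 24 h (23.7%) and 8 at 72 h (34.2%). At 72 h Ltbp2 was up by log2 5.85 (SE 0.30), Tgfbi by 3.19 (SE 0.29), Ccn2 by 2.91 (SE 0.33) and Tgfb3 by 2.105 (SE 0.18, edgeR adjusted p = 1.66e-08).

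Levels of cell type markers also changed over these times, some upward and some downward, and their part in the results was not tested. The 5 myofibroblast markers summed to 157 to 210 CPM in sham, 179 to 252 at 24 h and 1979 to 2116 at 72 h, with 4 higher and 1 lower at 72 h. Postn was most of that sum at 72 h (1565 CPM, against 21.1 in sham), whereas Acta2 was the larger part in sham and at 24 h (121 and 113 CPM). The 6 fibroblast markers summed to 1865 to 2070 CPM in sham, 931 to 1249 at 24 h and 1294 to 1781 at 72 h. That sum is mostly Gsn (1465 and 504 CPM in sham and at 72 h), and the other 5, Pdgfra, Tcf21, Dcn, Lum and Mfap5, were called higher at 72 h. At 24 h 2 of the 6 were called higher (Pdgfra and Mfap5) and 3 lower, against 23.7% and 20.2% of all genes tested. The lower ones were Gsn, Dcn (412 CPM in sham and 237 at 24 h) and Tcf21 (12.6 and 9.24). Macrophage markers (5) summed to 143 to 163 CPM in sham, 232 to 253 at 24 h and 1081 to 1277 at 72 h, with 5 of 5 higher. Neutrophil markers (5) summed to 2.31 to 3.58 CPM in sham, 96.6 to 733 at 6 h, 35.1 to 652 at 24 h and 45.1 to 55.7 at 72 h. Proliferation markers (5) went from 1.87 to 3.44 CPM in sham to 194 to 279 at 72 h. Endothelial markers fell in 4 of 5 and mural markers in 4 of 5 cases at 72 h, and 7 of 7 cardiomyocyte markers fell. At that time 34.2% of all genes tested were called higher and 32.2% lower. No marker was at 0 in all 3 libraries of a group.

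Over the 18 libraries the levels of the 10 genes followed each other to differing degrees, which is a description, since the libraries share 6 groups. On log2 CPM, Pearson's r was 0.63 to 0.98 over the 36 pairs without Plod1, highest for Loxl2 with Serpinh1, and -0.14 to 0.52 over the pairs with Plod1. The 3 genes most like Loxl2 over these libraries were Kdelr3, Col3a1 and Bgn (r = 0.98 each), and those most like Loxl3 were Gpnmb, Col16a1 and Tceal9 (0.99 each). Nearest to Lox were Bmp2k, Irf8 and Rab5c (0.98 each), to Loxl1 Tmsb10, Vat1 and Dok1 (0.98 each), and to Loxl4 Atp6v1h, Tpd52 and B4galt5 (0.97 each). P4ha3 was nearest to Serpinb6a, Tmem106a and Atp6ap2 (0.98 each), Serpinh1 to Tuba1a, Dpy19l1 and Adcy7 (0.98 to 0.99), and Plod2 to Aspm, Man1a2 and Cnot6 (0.96 each). For P4ha1 the nearest were Senp2, Agfg1 and Ahi1 (0.90 each), and for Plod1 Ggcx, Ptprs and Prrg3 (0.88 to 0.91).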

How the data were processed

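RNA sequencing of 18 mouse ventricles gave whole-number read counts per Ensembl gene, which the authors deposited together with FPKM per gene. Per the submitters' processing notes, cutadapt 1.18, HISAT2 2.1.0 and featureCounts were used with mm10; the annotation, the strand setting and any filters are not given in the sources used here. The FPKM values of replicates 2 and 3 at 6 h held each other's counts, which leaves group values as they are. IDs were matched to GENCODE M21 (30512 of 30583), the source of symbols and coordinates. In R 4.3.3, edgeR 4.0.16 was run on the deposited counts (filterByExpr, which removed 14272 genes, TMM, robust glmQLFit with 1 mean per group, all 18 libraries, two-sided glmQLFTest). The fit was also run on simulated counts with the same spread for every gene and few genes changed. That setting is simpler than these data, so it does not test the calls under their large shifts. SE is the log2 fold change over the root of the F statistic. No molecular identifiers were used, so intervals and low counts cover counting error only. Replicate pairs differed by more than sampling noise (chi-square per degree of freedom 6.72 to 73.1). Alternatives were other scalings and filters, DESeq2 1.42.0, limma 3.58.1 on log2(FPKM + 1) and log2(FPKM + 0.1), a fit to the 6 libraries compared, a replicate block and leaving out each library. The members and gene lists were chosen with earlier results of these data known. All 10 members were named, with the 4 genes of smallest adjusted p per list at 72 h (hypoxia list, 6 h), the most abundant gene of the marker lists described, and for each member the 3 non-members of highest Pearson r (log2 CPM, prior count 2, mean of at least 50 counts); other genes were named after their values were seen. Protein sequences were not used here.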

Additional observations from a re-analysis of the deposited data

How the results depend on the processing

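Of 90 results (10 genes in 9 comparisons), 36 were called and 32 of these were called in every alternative. The 4 that were not were Plod2 at 6 h and P4ha1 at 24 h against sham, Loxl1 from 1 h to 6 h and P4ha3 from 6 h to 24 h. Of the 54 that were not called, 39 were called in no alternative. The number of the 10 genes called was 1 in place of 0 at 10 min with only the 6 libraries compared (Loxl1, edgeR adjusted p = 0.0302; 9 of the 10 genes tested), 1 in place of 3 from 1 h to 6 h with limma on log2(FPKM + 1) and a mean FPKM of at least 1 (9 of the 10 tested, since this filter removes Loxl4, so that 1 call, Loxl1, was lost by the test), and 8 in place of 5 from 6 h to 24 h with library total scaling, with limma on log2(FPKM + 1) and with limma on log2(FPKM + 0.1). In that last comparison Plod1, at -0.00 on the log2 scale under TMM, was called higher with library total scaling (0.30) and with limma at each setting (0.28 with + 1, 0.29 with + 0.1 and 0.28 with the FPKM filter). With library total scaling the median log2 fold change over all genes against sham was -0.12 (6 h), 0.20 (24 h) and 0.61 (72 h). Higher calls then made up 40.6%, 75.5% and 79.9% of all calls, compared with 57.2%, 54.0% and 51.4% under TMM. Under it Plod1 and Serpinh1 were called lower at 6 h (log2 -0.33 and -0.51), and 10 of 10 genes higher at 72 h.

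Leaving out 1 library gave 0 to 0 calls at 10 min and 1 h, 2 to 4 at 6 h, 7 to 9 at 24 h and 9 to 9 at 72 h against sham. It gave 0 to 0 from 10 min to 1 h, 2 to 3 from 1 h to 6 h, 4 to 6 from 6 h to 24 h, 8 to 9 from 24 h to 72 h and 10 to 10 over all times. Same replicate numbers did not pair the libraries: correlations of their deviations ran from -0.26 to 0.25, no comparison had all 3 over 0.1, and 9 of 18 libraries correlated best with their own number. With a replicate block the counts of called genes against sham were 0, 0, 2, 8 and 9, and between consecutive times 0, 3, 5 and 8, and Plod2 at 6 h lost its call (edgeR adjusted p = 0.0659). At depths of 18.2 to 25.1 M counts, counting error is wide for genes with few counts, such as P4ha3 before 24 h (0 to 7 counts a library) and Loxl4 in sham (14 to 23 counts).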
